A study of Mus musculus with 7 samples.

Results

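Transcripts of 8 genes of the synaptonemal complex were followed through the development of the mouse ovary: Sycp1, Sycp2, Sycp3, Syce1, Syce2, Syce3, Tex12 and 4930447C04Rik, which is also known as Six6os1. The members were chosen by name among the 31053 genes of the deposited tables, and each name matched 1 row. Single-cell RNA was measured by 10x Genomics 3′ sequencing in 7 libraries of C57BL/6J tissue, 1 for each age, from embryonic days (E11.5, labelled gonad, then E12.5 and E14.5, and at the later fetal ages E16.5 and E18.5, labelled ovary) and postnatal days (P1 and P5, labelled ovary). The samples are described as wild type, and no treatment is given. Several gonads or ovaries were sequenced per age, per the study. An age has a single library, so age and library cannot be told apart and no p-value is given. Every interval is a 95% exact interval that covers counting error only.

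The synaptonemal complex is the protein scaffold that joins homologous chromosomes along their length during prophase of the first meiotic division. SYCP2 and SYCP3 form the axial elements, which become the lateral elements; SYCP1 is the transverse filament that bridges them; and SYCE1, SYCE2, SYCE3, TEX12 and SIX6OS1 build the central element in the middle. In female mice germ cells enter meiosis in the fetal ovary, assemble and take apart the complex before or around birth, and then arrest as oocytes.

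Germ cells were taken as cells with at least 3 UMIs of Dazl and Ddx4 together, which are RNA-binding proteins of the germline. Of 50823 cells with at least 200 genes, 4760 met this rule. In order of age they were 9, 321, 2669, 1016, 439, 244 and 62 cells, with median depths from 12107 UMIs at E18.5 to 60954 at P5. The E11.5 values therefore rest on 9 cells. Rnf17, a germ cell gene outside the rule, lay at 44.5 to 343 counts per 1000000 UMIs (CPM) in germ cells and at 1.04 to 5.81 in the other cells. Mael, Dnd1, Tex101 and Dppa3 were also listed as checks of the rule, and their levels are not given here. At P5, 51.6% of germ cells also had at least 5 UMIs of a somatic marker list or over 5% haemoglobin UMIs. In the earlier libraries the share was 0 to 18.8%. The limit of 5 UMIs was applied to unthinned cells, and germ cells were deepest at P5, so these shares are not at equal depth. Pairs of libraries shared between 0 and 136 cell barcodes, and 5 shared barcodes in all were germ cells.

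On GRCm38, in the GENCODE vM21 annotation, the 8 genes lie on 8 chromosomes. Sycp1 spans chr3:102818499-102936100, Sycp2 chr2:178345293-178407685, Syce1 chr7:140777229-140787852, Syce3 chr15:89390174-89410503, Tex12 chr9:50556819-50561325 and 4930447C04Rik chr12:72881109-72940774, all on the minus strand. Sycp3 spans chr10:88459569-88473236 and Syce2 chr8:84872111-84888221 on the plus strand. No annotated gene overlaps a member on the same strand. On the opposite strand Sycp3 overlaps Chpt1, Syce2 overlaps Gcdh, Tex12 overlaps Il18 and 4930447C04Rik overlaps Six6, and Sycp1 and Syce1 overlap predicted genes named Gm.

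The promoters of the members were searched for short motifs as a description. RefSeq start sites on GRCm38.p6 gave 10 windows for the 8 genes, each from 250 bases before to 50 bases after a start, with 2 starts each for Syce2 and Syce3. The E-box CACGTG, a palindrome, was present in 5 of 8 members, whereas 8.09% of all 27025 genes with a window held it. These matches are shown with 7 bases on each side, 5′ to 3′ on the strand of the gene, and capitals mark the E-box.
Sycp1, 94 bases before the start, chr3:102936182-102936201, minus strand: aacccggCACGTGggaaggg
Sycp3, 64 bases before the start, chr10:88459516-88459535, plus strand: tggctccCACGTGagaacgg
Sycp3, 43 bases before the start, chr10:88459537-88459556, plus strand: catggagCACGTGctaggag
Syce2, 88 bases before the second start, chr8:84872163-84872182, plus strand: cattcagCACGTGctcgggg
Tex12, 93 bases before the start, chr9:50561349-50561368, minus strand: agactgtCACGTGgctcgcg
4930447C04Rik, 171 bases before the start, chr12:72917924-72917943, minus strand: ggcctacCACGTGgtgcgcg

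The other motifs were searched on both strands. The STRA8 motif CNCCTCAG was found in Sycp1, Syce2, Tex12 and 4930447C04Rik, 4 of 8 members, beside 9.12% of all genes. The E2F motif TTCCCGC was found in Sycp3, Syce2 and Tex12, beside 5.29% of all genes, and in Syce2 it overlapped the STRA8 match. The cyclic AMP response element TGACGTCA was in no member and in 2.03% of all genes. Sycp2, Syce1 and Syce3 held none of the 4 motifs in these windows. With up to 40 bases on each side, the E-box stretches of Sycp3, Syce2, Tex12 and 4930447C04Rik overlapped an annotated exon. That of Sycp1 did not. The E-boxes of Syce2 and 4930447C04Rik lie inside the gene spans given above. A match is a match of letters, and binding was not measured. Whether the matches bear on the levels of the members was not tested.

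The question of when and where the complex is transcribed was addressed first by the level of each gene, in CPM of the summed UMIs of all cells in a group, in germ cells and in all other cells of each library. The 3′ method counts a transcript once whatever its length, so levels were not divided by length. In the plot of levels by age, germ cells lay above the other cells for all 8 genes from E12.5 on. Genes with at least 20 UMIs over both groups were compared, and a level at least 4-fold higher was called. From E12.5 to P5 all 8 members were called in each of the 6 libraries, whereas in order of age 5.19%, 8.93%, 13.4%, 9.78%, 11.46% and 12.1% of all genes compared were. Sycp2 at E12.5 was called from 12 UMIs in germ cells and 10 in other cells, and its interval reached below 4-fold. At E11.5, 5 of the 6 members with enough UMIs were called, beside 4.97% of all genes, from 3 to 74 UMIs each in the 9 germ cells. Sycp2 was the member not called there, with 0 UMIs in germ cells, which allows up to 13.4 CPM at a limit of 3 UMIs. The median member stood 207-fold higher in germ cells at P5 and 40.0-fold at E14.5. The ratio moves with the level in the other cells too, and is no measure of the germ cell level alone. Tex12, for example, lay at 359 CPM in germ cells and 7.53 in other cells at E14.5, and at 64.5 and 0.250 at P5.

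**Figure D1:**
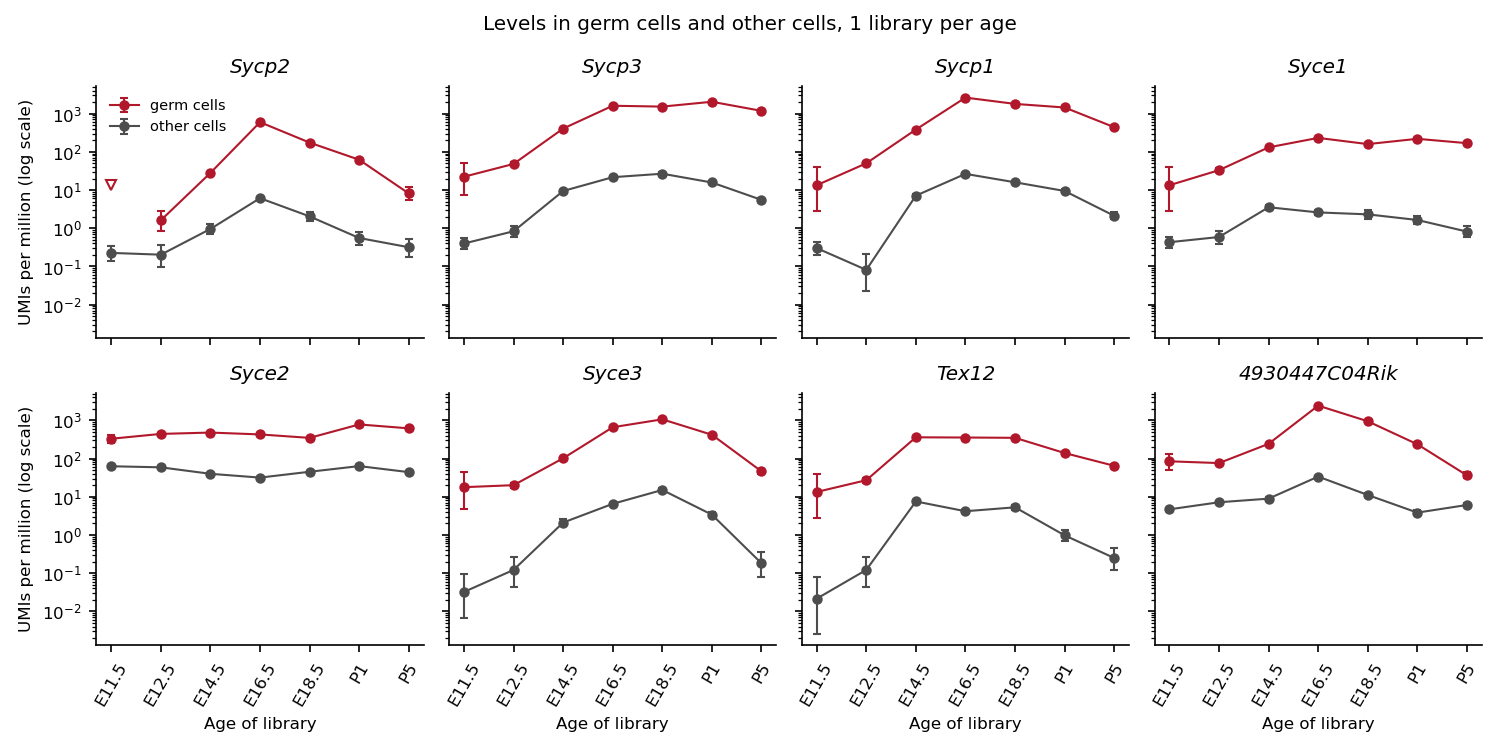
Level of each gene in CPM (log scale) by age of library, in germ cells (red) and all other cells (grey); bars are 95% exact Poisson intervals, and an open triangle is the level that 3 UMIs would give where none was counted. Sycp2 and 4930447C04Rik form a peak at E16.5, Sycp3 and Syce1 remain high to P5, and Syce2 has the smallest ratio of highest to E12.5 level, 1.77.

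The lateral element genes differed in their courses. In germ cells Sycp2, in order of age, lay at 0, 1.62, 28.1, 596, 174, 61.9 and 8.14 CPM. It was highest at E16.5, 368-fold (211 to 713) above E12.5, and 73.2-fold (50.6 to 110) lower by P5. Sycp3, whose protein is the common cytological marker of the axes, lay at 22.3, 48.1, 405, 1603, 1522, 2037 and 1177. It was highest at P1 and only 1.73-fold (1.67 to 1.79) lower at P5, and neighbours in its order of levels differed beyond their intervals except E12.5 and E11.5. The partners of the axis were thus at 1.37% and 57.8% of their highest levels in the P5 library.

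The transverse filament gene Sycp1 lay at 13.4, 50.01, 382, 2618, 1791, 1442 and 440.3 CPM. Its level at E16.5 was 52.3-fold (47.3 to 58.1) that at E12.5 and 5.94-fold (5.65 to 6.26) that at P5. All neighbours in its order of levels had separate intervals, although the E11.5 interval, 2.75 to 39.0, was wide. In the other cells Sycp1 was at 0.0813 CPM at E12.5, 4 UMIs in 4384 cells, and at 26.4 at E16.5. Of the 2621 UMIs at E16.5, 1060 came from the 980 cells with 1 or 2 UMIs of Dazl and Ddx4. The 7244 cells with neither gene and at least 2000 UMIs held Sycp1 at 10.0 CPM.

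Central element genes did not share an age of highest level. Tex12 was highest at E14.5, although not beyond its E16.5 interval, with levels of 13.4, 27.1, 359, 355, 348, 139 and 64.5. Its E14.5, E16.5 and E18.5 values were alike, and neighbouring intervals overlapped. The E14.5 value is a mean over germ cells in which Tex12 went from 75.1 to 1139 CPM along the order described below. 4930447C04Rik lay at 84.6, 76.0, 242.5, 2422, 944, 236 and 36.3, a peak at E16.5 that stood 31.9-fold (29.3 to 34.7) above E12.5 and 66.7-fold (56.0 to 80.1) above P5. Syce3 was the gene that was highest at E18.5, with levels of 17.8, 20.1, 101.5, 659, 1061, 419 and 46.2.

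Syce1 changed less, at 13.4, 33.0, 131, 231, 159, 218.5 and 168, and its E16.5 and P1 intervals overlapped. Syce2 was the least variable member. It lay at 329, 441, 478, 427, 347, 779 and 616, and its P1 maximum was 1.77-fold (1.69 to 1.85) above E12.5 and 1.27-fold (1.202 to 1.33) above P5. In the E11.5 germ cells 74 Syce2 UMIs were counted, against 19 of 4930447C04Rik and 0 of Sycp2. Sycp1, Sycp3, Syce1, Syce3 and Tex12 had 3 to 5 each. In the other E11.5 cells Syce2 lay at 62.8 CPM. The germ cells that remained at P5 under the limits on somatic markers and haemoglobin were 30 of 62. They gave 1355 for Sycp3, 605 for Syce2, 385 for Sycp1 and 6.86 for Sycp2.

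Neighbouring ages were compared in germ cells, and a difference of at least 2-fold was called among genes with at least 20 UMIs in the pair. From E11.5 to E12.5, 4 of 7 members were called higher and 0 lower, beside 8.78% of all genes higher and 11.6% lower. These were Sycp1, Sycp3, Syce1 and Tex12, with 3 to 5 UMIs each at E11.5, and the intervals of the ratios for Sycp3, Syce1 and Tex12 included 1. From E12.5 to E14.5, 7 of 8 were higher and 0 lower, beside 21.3% and 8.37% of all genes. Sycp2 was 17.3-fold (9.89 to 33.7) higher, Tex12 13.3-fold (11.53 to 15.3) and Sycp3 8.42-fold (7.58 to 9.38). Syce2 was the exception, at 1.08-fold (1.04 to 1.13).

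From E14.5 to E16.5, 5 of 8 members were higher and 0 lower, beside 39.4% and 14.7% of all genes, and the median of all genes was itself 1.53-fold higher. Sycp2 was 21.2-fold (19.9 to 22.7), 4930447C04Rik 9.99-fold (9.77 to 10.2), Sycp1 6.85-fold, Syce3 6.49-fold and Sycp3 3.95-fold higher. Tex12, at 0.987-fold (0.961 to 1.014), and Syce2, at 0.894-fold (0.872 to 0.916), were not called. From E16.5 to E18.5, 0 members were higher and 2 were lower, beside 11.1% and 20.7% of all genes: Sycp2 was 3.43-fold (3.21 to 3.66) and 4930447C04Rik 2.57-fold (2.50 to 2.64) lower.

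From E18.5 to P1, 1 was higher and 4 were lower, beside 10.6% and 16.7% of all genes. Syce2 was 2.25-fold (2.13 to 2.37) higher, and 4930447C04Rik 3.997-fold, Sycp2 2.81-fold, Syce3 2.53-fold and Tex12 2.50-fold lower. From P1 to P5, 0 members were higher and 5 were lower, beside 13.6% and 10.9% of all genes. Syce3 was 9.06-fold (7.72 to 10.7), Sycp2 7.60-fold (5.17 to 11.6), 4930447C04Rik 6.50-fold (5.41 to 7.87), Sycp1 3.27-fold (3.10 to 3.46) and Tex12 2.16-fold (1.86 to 2.51) lower. Sycp3, Syce1 and Syce2 were 1.73-fold, 1.30-fold and 1.27-fold lower, within the 2-fold limit. Levels are shares of all UMIs throughout, and the median depth of germ cells was 20902 UMIs at P1 and 60954 at P5. A lower level at P5 therefore need not mean fewer UMIs per cell.

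The order in which the members appear was examined within the E14.5 library, whose germ cells span the entry into meiosis. The 2592 germ cells with at least 2000 UMIs were ordered by UMIs of 15 meiotic genes against 8 pluripotency genes, lists that hold no member, and divided into 10 bins of 259 or 260 cells. Along the bins the pluripotency list, which is part of the ordering, went from 2904 to 432 CPM. Stra8, the gatekeeper of meiotic entry, is in neither list. It went from 437 in the first bin to 2035 in bin 9 and 1894 in the last. Depth moved with the order as well, from a median of 17637.5 UMIs per cell in the first bin to 9515 in the last, and its part in the result was not tested. All 8 members were highest in the last bin. The position of a gene is the percentile of cells at which it reached 50% of its highest bin. This bin lies within E14.5, where the members stood at unequal shares of their E16.5 levels, as given below. The order is read against this reference.

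Syce2 was already at or above 50% in the first bin, with 412 CPM there and 809 in the last, its lowest bin was at 382, and the interval of its position reached to 46.3. Sycp1 reached 50% at percentile 52.8 (49.1 to 56.1) and Syce1 at 55.9 (51.2 to 61.3). The other 5 members followed after percentile 70, as the plot of levels along the axis shows. They were Tex12 at 71.8, Sycp3 at 72.4, 4930447C04Rik at 74.6, Sycp2 at 78.7 (74.2 to 83.5) and Syce3 at 78.8 (76.8 to 80.8). Within this late group the interval of 4930447C04Rik, 71.7 to 76.6, overlapped those of Tex12, Sycp3 and Sycp2, and Tex12 overlapped Sycp3 and Sycp2 overlapped Syce3.

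**Figure D2:**
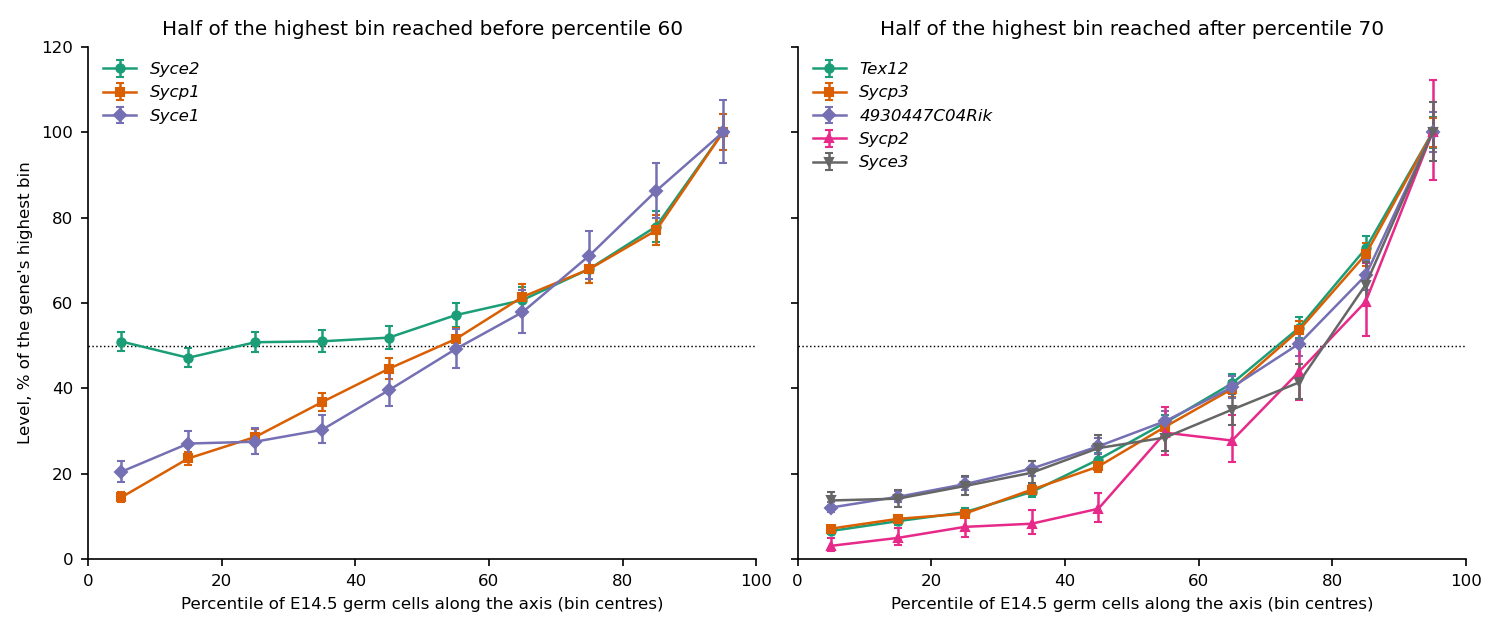
Level of each gene in 10 bins of E14.5 germ cells, as a percentage of its own highest bin, with 95% exact Poisson intervals; the dotted line marks 50%. Syce2 starts near 50%, Sycp1 and Syce1 cross the line before percentile 60, and the other 5 genes cross it after percentile 70.

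The size of the difference along the bins also varied. From the first to the last bin Sycp2 went from 3.49 to 112 CPM, 32.2-fold (19.8 to 56.0). Tex12 went from 75.1 to 1139, 15.2-fold, and Sycp3 from 92.9 to 1301. Sycp1 was 6.91-fold, Syce1 4.89-fold and Syce2 1.96-fold (1.84 to 2.09) higher. The members stood at unequal shares of their E16.5 levels by the last bin. Tex12 there was at 321% of its E16.5 level and Syce2 at 189%, whereas Sycp1 was at 31.7%, 4930447C04Rik at 29.7% and Sycp2 at 18.8%.

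The same ordering was applied within E12.5 and within E16.5, in tertiles. Sycp1 was at 30.3 CPM in the lowest E12.5 tertile and 75.6 in the highest, 2.50-fold (1.91 to 3.29). Sycp3 was 1.47-fold (1.13 to 1.91) and Syce3 1.52-fold (1.02 to 2.29) higher, whereas the intervals for Sycp2, Syce1, Syce2, Tex12 and 4930447C04Rik included 1. At E16.5 the highest tertile was above the lowest by 2.46-fold (2.34 to 2.59) for Syce2, 2.40-fold for Syce1, 1.97-fold for Tex12, 1.95-fold for Sycp3 and 1.79-fold for Sycp2. Sycp1 and 4930447C04Rik were 1.23-fold and 1.31-fold higher, and Syce3 did not differ beyond its interval, 1.02-fold (0.983 to 1.06).

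Other genes of meiotic prophase gave a setting for these courses. Of a list of 21 genes, 18 of the 20 with enough UMIs were at least 2-fold higher at E14.5 than at E12.5 and 0 were lower, beside 21.3% and 8.37% of all genes. At E16.5, 16 of 20 were higher than at E14.5 and 2 lower, beside 39.4% and 14.7%. The cohesin subunit gene Smc1b went from 361 to 1093 and 3900 CPM and the axis gene Hormad1 from 49.5 to 149 and 520. Rec8, which encodes a meiotic kleisin, was among the 2 that were lower, at 149 in E14.5 germ cells and 7.20 in E16.5 germ cells. It lay at 51.7 and 41.5 in the other cells. From E16.5 to E18.5, 1 of 20 was higher and 11 were lower, beside 11.1% and 20.7% of all genes. Sycp2l, a paralogue of Sycp2 known from oocytes, was at or below 0.545 from E12.5 to E18.5 and at 7.90 and 8.14 at P1 and P5, when Sycp2 was at 61.9 and 8.14.

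Detection in single cells was compared after each cell was thinned to 2000 UMIs. A median of 0, 1, 3, 6, 5, 4 and 2 of the 8 members had a UMI in a germ cell, in order of age. At E12.5 the typical member detected was Syce2, with a UMI in 56.9% (51.2 to 62.4) of cells against 0.639% to 12.1% for the other 7. At E16.5 Sycp1 was found in 97.0% and 4930447C04Rik in 97.1% of thinned germ cells, and 5.99% of cells had all 8 members. At P5 Sycp3 was still found in 95.2% (86.5 to 99.0), Syce2 in 58.1% and Sycp1 in 54.8%, but Sycp2 in 1.61% (0.0408 to 8.66). Without thinning, the shares at P5 were 100% for Sycp3 and 33.9% for Sycp2.

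**Figure D3:**
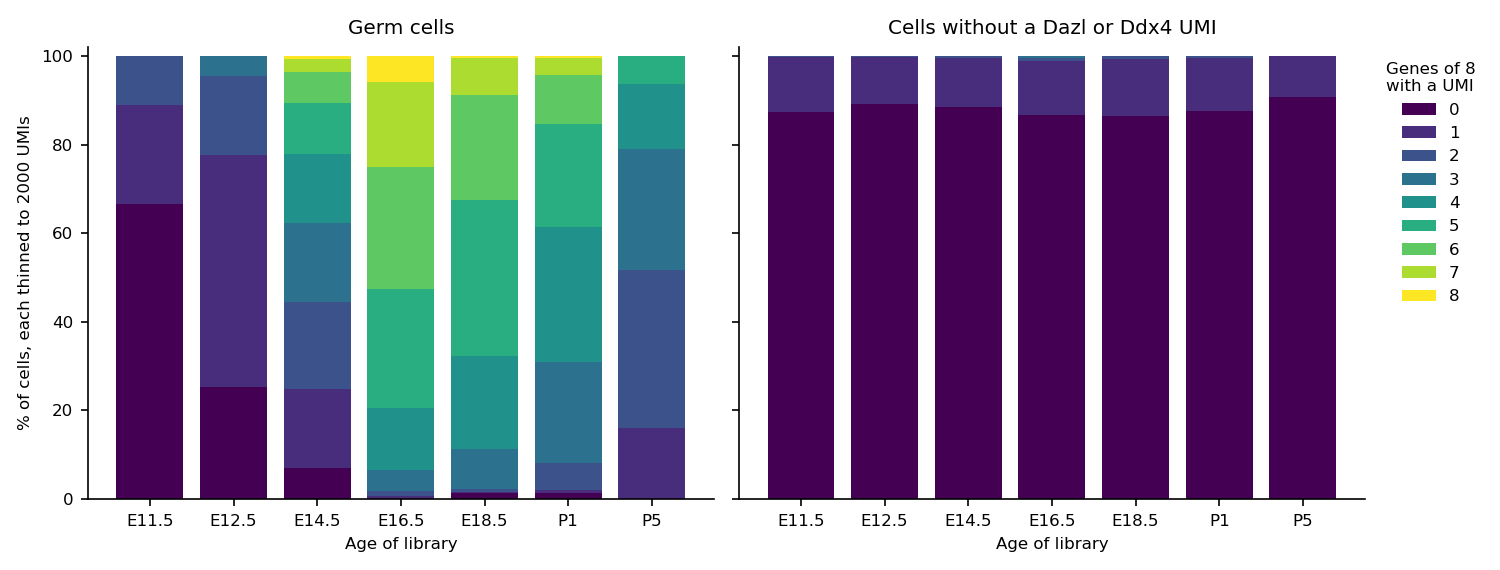
Share of cells by the number of the 8 genes with a UMI, in germ cells (left) and in cells without a Dazl or Ddx4 UMI (right), each cell thinned to 2000 UMIs. In germ cells the median goes from 1 at E12.5 to 6 at E16.5 and 2 at P5, and in the cells on the right the median is 0 at every age.

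In cells without a Dazl or Ddx4 UMI, thinned alike, the share with Sycp1 was at most 2.24%, with 0 of 3910 cells at E12.5, which allows a share of up to 0.0767% at a limit of 3 cells, and that with Sycp3 was 0.0767% to 3.31%. Free RNA in droplets can give such UMIs. Syce2 stood out with 4.89% to 11.6% of such cells. At E14.5 the members were detected together more often than the product of their single shares, with a median ratio over the 28 pairs of 1.31. The ratio was lowest for Sycp1 and Syce2, 1.06, and highest for Sycp2 and Syce3, 1.79. Within the axis bins the median ratio was 1.09. In the 3 next libraries, E16.5 to P1, the median ratio over 28 pairs was 1.02, 1.013 and 1.02. At E16.5 it ran from 0.975 to 1.17. The ratio cannot exceed 1 divided by the larger single share, so a gene found in nearly all cells holds its pairs near 1. The medians of these libraries can therefore not be compared with that at E14.5. The pairs share cells and the ratios are a description.

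At E14.5, 815 thinned cells had both Sycp3 and Tex12, beside 447 with Sycp3 alone of the pair and 390 with Tex12 alone. For Sycp1 and Sycp2, 113 cells had both, 1245 Sycp1 alone and 45 Sycp2 alone. The genes were detected in 52.4% and 6.10% of cells, so these counts follow their unequal detection and show no order.

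Syce2 differed from the other members outside the germline. In cells with no Dazl or Ddx4 UMI and at least 2000 UMIs it lay between 30.0 and 62.1 CPM in the 7 libraries, from 1009 to 5679 UMIs each. At E12.5 such cells held 2704 UMIs of Syce2 and 1 of Sycp1, whereas germ cells of the same library held 3269 and 371. The ratio of germ to other cells was therefore 5.25 to 13.98 for Syce2 in the 7 libraries. For the remaining members from E14.5 to P1 it was 27.2 to 153. The other cells here include those with 1 or 2 UMIs of Dazl and Ddx4. Against cells with none, the P1 ratio was 256 instead of 153 for Sycp1 and 12.6 instead of 12.3 for Syce2. Ratios within the range of Syce2 were also found for 4930447C04Rik, at 10.6 at E12.5 and 5.97 (4.79 to 7.41) at P5. The Sycp2 ratio at E12.5, 7.96, was within it too, with a wide interval of 3.15 to 20.6. 4930447C04Rik lay at 2.89 to 17.5 CPM in the deeper cells without Dazl or Ddx4.

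Cells without Dazl or Ddx4 were assigned to somatic gates by marker UMIs. Over the 7 libraries Syce2 was at 63.0 (57.6 to 68.8) in the immune gate, 60.9 in the mesenchymal, 52.2 in the epithelial, 37.1 in the endothelial and 36.3 in the erythroid gate. In the pregranulosa gate it was at 21.3 (20.4 to 22.2), below the mesenchymal gate in each library, for example at 12.04 against 47.5 at E16.5 and 20.5 against 76.2 at P5. The erythroid gate varied more between libraries, from 8.09 at E12.5 to 73.4 at P1, and held less Syce2 than the pregranulosa gate at E12.5, E14.5 and P5. Summed over libraries 4930447C04Rik was at 11.6 (10.9 to 12.2) in the pregranulosa and 6.71 (6.29 to 7.15) in the mesenchymal gate. At E11.5 it was lower in the pregranulosa gate, at 3.58 against 4.96, and at E16.5 the levels were 18.1 and 16.9, both with overlapping intervals. The other 6 members lay between 0.628 and 7.54 CPM in the 6 gates, as the plot by somatic gate shows.

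**Figure D4:**
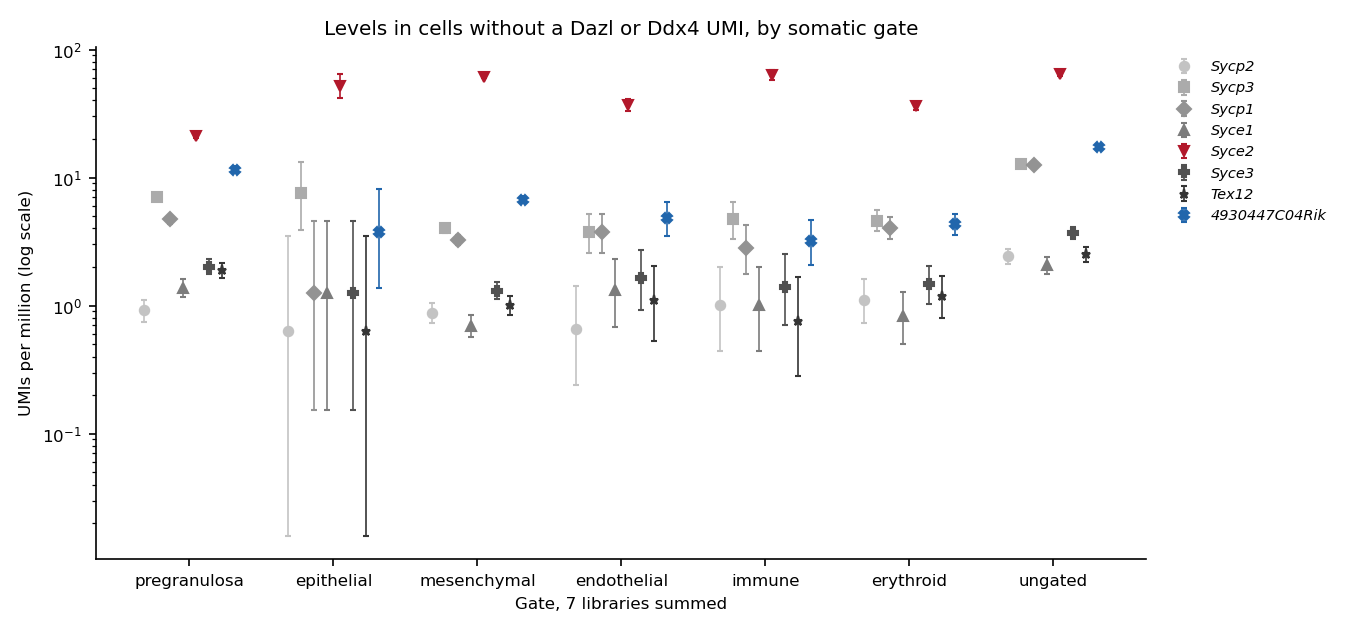
Level of each gene in CPM (log scale) in cells without a Dazl or Ddx4 UMI, by somatic gate, 7 libraries summed, with 95% exact Poisson intervals. Syce2 (red) is above the other 7 genes in every gate and lower in the pregranulosa than in the mesenchymal gate. 4930447C04Rik (blue), Sycp1, Sycp3, Syce1, Syce3 and Tex12 are higher in the pregranulosa than in the mesenchymal gate.

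Members were also found in cells of low depth that the Dazl and Ddx4 rule left out. At E16.5, 1530 cells without either gene had fewer than 2000 UMIs, with a median of 919.5. They held Sycp1 at 430 (398 to 464) and 4930447C04Rik at 495 (460 to 531) CPM, whereas the 7244 deeper cells held 10.0 and 17.5. At E14.5 the Sycp1 levels of such shallow and deeper cells were 80.9 and 3.23. At E12.5 they were 2.96 and 0.0212, from 1 UMI each, and their intervals overlapped. At E14.5 and E16.5 the rule therefore misses cells with member transcripts at low depth. Whether these are germ cells or hold free RNA was not tested.

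In the late libraries germ cells were divided into tertiles by UMIs of 12 oocyte genes that hold no member, among them the zona pellucida genes and Figla. At E18.5 Sycp3 was at 973, 1399 and 2115 CPM from the lowest to the highest tertile, 2.17-fold (2.05 to 2.30). Syce2 was 1.93-fold (1.72 to 2.17) and Syce1 1.61-fold (1.36 to 1.90) higher in the highest tertile. 4930447C04Rik went the other way, from 1236 to 641, a ratio of 0.518 (0.483 to 0.556), as did Syce3 at 0.737 (0.692 to 0.784), Sycp2 at 0.795 (0.677 to 0.933) and Sycp1 at 0.870 (0.829 to 0.914). Tex12, at 1.03 (0.919 to 1.15), did not differ beyond its interval.

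The same division at P1 gave 1.28-fold (1.22 to 1.34) for Sycp3, 1.27-fold for Syce2 and Syce1, and 0.647 (0.569 to 0.735) for 4930447C04Rik. At P5, with 20 or 21 cells per tertile, Syce2 was 1.43-fold (1.27 to 1.60) higher in the highest tertile while Sycp3 was at 0.713 (0.660 to 0.771), Syce1 at 0.640 (0.516 to 0.794) and 4930447C04Rik at 0.353 (0.209 to 0.591). Syce2 was thus higher and 4930447C04Rik lower with the oocyte list in all 3 libraries, and Sycp3 and Syce1 changed direction at P5. Median UMIs in the lowest and highest tertile were 11703 and 12647.5 at E18.5, 16892.5 and 30556 at P1, and 33217 and 77972.5 at P5. In tertiles by depth alone, from shallowest to deepest, Syce2 went from 548 to 877 CPM and 4930447C04Rik from 459 to 135 at P1. In the P5 library Syce2 went from 415 to 656 and 4930447C04Rik from 49.0 to 32.6, the latter with overlapping intervals. Sycp3 was lower in the deepest tertile at P1 (1922 against 2163) and P5 (1116 against 1346), and Syce1 was not at P5 (158 against 147). At E18.5 the intervals overlapped for Syce2 and 4930447C04Rik. The part of depth was not tested.

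**Figure D5:**
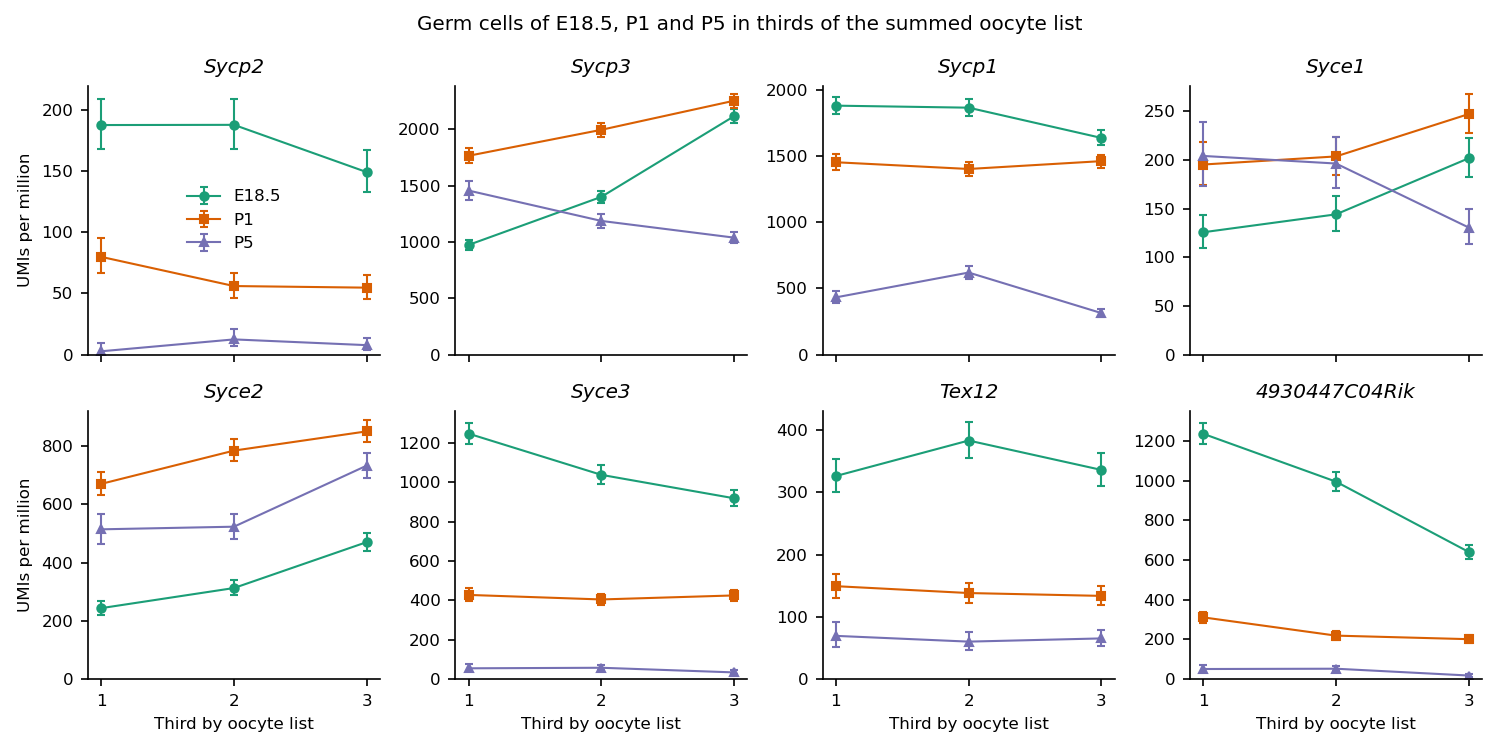
Level of each gene in CPM in germ cells of E18.5 (green), P1 (orange) and P5 (purple), in 3 groups of increasing oocyte list UMIs, with 95% exact Poisson intervals. Syce2 is higher and 4930447C04Rik lower in the third group than in the first in all 3 libraries, and Sycp3 goes up at E18.5 and down at P5.

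Likeness of pattern was measured as Pearson's r of log2 levels over 16 points, the 10 bins of E14.5 and the germ cells of the other 6 libraries. Of the member pairs, Sycp3 with Syce1, at 0.9495, Sycp3 with Sycp1, at 0.949, and Sycp2 with Syce3, at 0.947, were the most alike. Syce2 and 4930447C04Rik were the least alike, at 0.154. Of 8583 other genes, Baz1a, Ndufv2, Tsc22d3, Zfp672 and Tanc2 had the highest mean r with the 8 members, from 0.851 to 0.858. The genes of the meiotic list and of the lists that order the E14.5 cells were left out of this ranking. The points of 1 library share its cells and depth, and the r values are a description.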

How the data were processed

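The authors deposited unnormalized whole-number UMI counts, 1 table per library, made with Cell Ranger on mm10 from 10x Genomics 3′ libraries (52542 barcodes). Barcodes with at least 200 genes were kept (50823), with totals from 31960736 to 124390521 UMIs per library. Counts were summed over cells and given as counts per 1000000 UMIs (CPM), with 95% exact Poisson, binomial or conditional ratio intervals, which cover counting error only. With 1 library per age no test across samples was possible, so fixed limits (4-fold, 2-fold, at least 20 UMIs) were used and read against all genes. A group at 0 UMIs entered a fold at 3 UMIs. Doublets were kept, and Scrublet (scanpy 1.11.5) was used for an alternative. It called 413, 235, 391, 436, 79, 164 and 111 cells in order of age, by the 5% highest scores at E11.5 and E12.5, where its threshold marked under 1%. Python 3.11.15, numpy 2.4.6, scipy 1.17.1 and matplotlib 3.10.9 were used, and the scripts were tested on simulated data. Every member was named. From the genes outside the members, the meiotic list and the axis lists, the 5 with the highest mean r over the members were named. For this r, 5 CPM were added before log2 and at least 20 CPM at 1 point were needed. Genes of the meiotic list were given by counts with examples. Somatic gates needed at least 5 UMIs of a list and 3 times those of every other list, and the erythroid gate 25% haemoglobin UMIs. Motifs and gene positions came from RefSeq promoters and GENCODE vM21 on GRCm38. The members and lists were chosen with earlier results of these data known. Protein sequences were not used here.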

Additional observations from a re-analysis of the deposited data

How the results depend on the processing

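Results were recomputed under 23 listed alternatives and 2 added after seeing the data, which divided each change by the median change of all genes or kept germ cells with at least 5000 UMIs. Of 396 recomputed counts, 377 stayed within 1.5 times the reported one. The step from E11.5 to E12.5 was the weakest: with germ cells of at least 10 Dazl and Ddx4 UMIs 1 member was at least 2-fold higher, with at least 2 Ddx4 UMIs 2 were, and at a fold of 3 only 1 (Sycp1) was. Tex12 reversed to -0.31 on the log2 scale under the first of these. With genes of at least 100 UMIs, 2 members were called in E11.5 germ cells. A fold of 1.5 gave 1 member higher from E16.5 to E18.5. A fold of 3 left 1 lower there, and 0 higher and 1 lower from E18.5 to P1. The median number of members per germ cell depended on depth. Thinned to 5000 UMIs it was 1, 2, 5 and 4 at E11.5, E12.5, E14.5 and P5, and unthinned it was 3, 4, 6, 8, 7 and 7 at E11.5, E12.5, E14.5, E18.5, P1 and P5, and with at least 10 Dazl and Ddx4 UMIs 0.5 at E11.5. Tex12 was highest at E16.5 instead of E14.5 under 5 of 10 alternatives, and no other member changed its age of highest level. Syce2, Sycp1 and Syce1 preceded the other 5 on the E14.5 axis under 12 of 13 alternatives. This grouping came from the reported positions, and these 12 ordered E14.5 cells alone, against the highest bin among them. The exception was the joint ordering of E12.5, E14.5 and E16.5, which kept 20 of 28 pairs in order. There Tex12, at percentile 43.4, and Syce3, at 64.7, came before Sycp1, at 67.4, and Tex12 also before Syce1, at 62.3. With the early list alone the other 5 lay at 48.8 to 56.9, and at 25% of the highest bin at 42.3 to 52.4. Of 112 recomputed positions, 75 stayed within the counting interval and 37 moved. Of the levels, 420 of 560 recomputed values stayed within the counting interval, and of the ratios of germ to other cells 387 of 605, with 218 moved and 0 reversed. No paired analysis was possible because each age has 1 library.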
